A study of Mus musculus with 16 samples.

Results

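The results concern 10 genes of the type 1 and cytotoxic programme of T cells, measured in regulatory T cells (Tregs) of mouse muscle and spleen. They are Il12rb1, Il12rb2, Tbx21, Ifng, Ccl5, Gzmb, Gzma, Prf1, Nkg7 and Klrg1. They were taken by name from the 52997 genes of the count table. All 10 were found, and 8 of them were among the 13188 genes with enough counts to test in the Treg libraries. Gzma and Il12rb2 were not.

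In conventional T cells, interleukin-12 signals through a receptor built from the Il12rb1 and Il12rb2 chains, and the transcription factor T-bet, encoded by Tbx21, switches on Ifng and other type 1 genes. Killer lymphocytes store granzymes and perforin in granules and release them together. Perforin opens the target cell and granzymes act inside it. Tregs, which express Foxp3 and hold back other immune cells, can take up parts of both programmes at sites of inflammation, and granzyme B has been described as one of the means by which they act on other cells.

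The animals were B6 mice with green fluorescent protein reporting Foxp3, aged 6 to 8 weeks. Tg mice carried mTreg24, a transgenic T cell receptor (strain mTreg24 TCR-tg+ Foxp3 GFP+ (B6)), and WT animals lacked it (mTreg24 TCR-tg- Foxp3 GFP+ (B6)). There were 5 Treg groups with 2 libraries each: Tg muscle, WT muscle, Tg spleen after injury, uninjured Tg spleen, and WT spleen. Muscle was injured with cardiotoxin (Ctx), a venom toxin that kills muscle fibres, and both muscle groups and the injured spleens were taken 3 days later. That the WT spleens also came from injured mice is known only from the series' design text. From Tg mice the Vβ8+ cells were sorted and from WT mice the whole Treg population, so genotype and sort gate cannot be told apart. The promoter that drives the transgene is not given in the sources used here. The labels do not say whether the libraries of a group came from separate animals or pools, and the spread behind every p-value may therefore be technical.

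Total counts ran from 1986700 to 9116800 per Treg library, and the 2 extremes were WT libraries, spleen replicate 1 and muscle replicate 2. The deepest library, WT muscle replicate 2, had counts in 17081 genes, the fewest of the 10. The WT muscle pair gave the largest chi-square per degree of freedom (28.9, against 5.47 to 9.02 in the other 4 groups). That value grows with depth, and this pair held the 2 deepest libraries, so depth and spread cannot be told apart in it. The segment Trbv13-2, which encodes a Vβ8 chain, gave 96.6% to 98.4% of variable beta segment counts in the 6 Tg libraries and 4.13% to 11.8% in the 4 WT libraries. The Treg markers Foxp3, Il2ra, Cd4, Ctla4, Ikzf2 and Cd3e had counts in every group and summed to 4410 to 7218 CPM (counts scaled by library total). A count of 0 allows up to 3 counts, which is 0.329 CPM in the deepest library and 1.51 CPM in the shallowest. Such limits cover counting error only. Fold changes below were fitted with TMM scaling, which adjusts library totals for composition, and each is given with its SE. Statements on overlap between libraries are descriptions, as each group holds 2 libraries. The share of all genes without overlap was not counted.

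Promoter sequence was on hand for 7 of the 10 genes. Of these, 3 are shown as 300-base windows of RefSeq's GRCm38.p6 annotation, from 250 bases before to 50 bases after the annotated start, because they set a granule gene whose RNA differed between tissues, Gzmb, beside its granule partner Prf1 and the cytokine gene Ifng. Gzmb lies at chr14:56262285-56262584 on the minus strand, Prf1 at chr10:61297586-61297885 on the plus strand, and Ifng at chr10:118440796-118441095 on the plus strand. Capitals mark matches, on either strand, to 4 short motifs: TCACAC (core of T-box sites), TGTGGT (Runx), TGANTCA (AP-1) and TTCNNNGAA (GAS, bound by STAT factors).
Gzmb promoter: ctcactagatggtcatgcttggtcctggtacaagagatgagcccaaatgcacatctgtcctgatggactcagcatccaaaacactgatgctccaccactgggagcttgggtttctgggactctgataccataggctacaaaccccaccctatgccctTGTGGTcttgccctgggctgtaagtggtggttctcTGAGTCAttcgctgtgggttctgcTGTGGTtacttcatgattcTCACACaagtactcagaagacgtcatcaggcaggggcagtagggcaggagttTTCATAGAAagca
Prf1 promoter: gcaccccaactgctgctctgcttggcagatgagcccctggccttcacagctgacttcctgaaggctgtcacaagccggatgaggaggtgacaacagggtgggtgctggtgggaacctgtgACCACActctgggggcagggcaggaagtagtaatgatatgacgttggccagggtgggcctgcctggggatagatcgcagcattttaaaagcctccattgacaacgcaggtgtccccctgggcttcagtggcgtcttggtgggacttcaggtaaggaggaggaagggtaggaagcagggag
Ifng promoter: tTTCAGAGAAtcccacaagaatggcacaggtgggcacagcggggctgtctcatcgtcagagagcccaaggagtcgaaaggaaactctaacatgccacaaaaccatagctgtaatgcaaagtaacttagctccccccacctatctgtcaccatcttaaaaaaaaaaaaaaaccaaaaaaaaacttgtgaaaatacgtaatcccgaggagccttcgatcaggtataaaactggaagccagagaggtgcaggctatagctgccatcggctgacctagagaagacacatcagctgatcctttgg
The Gzmb window held 5 matches. They were a T-box core 15 bases before the start, an AP-1 motif 58 bases before it, Runx motifs 93 and 34 bases before it, and a GAS motif 38 bases after it. GENCODE M21 places the Gzmb start 74 bases downstream of RefSeq's. The Prf1 window held 1 Runx motif and the Ifng window 1 GAS motif. In the windows not shown, Nkg7 had 3 matches, Il12rb2 had 2, Gzma had 1 and Tbx21 had 0. Of 32851 promoters of the same length, 14.5% held the T-box core, 16.8% the Runx motif, 7.81% the AP-1 motif and 8.3% the GAS motif. A match describes the letters of these windows and shows no binding.

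Among the 10 genes, Gzmb and Klrg1 carried most of the counts in muscle and in Tg spleen. Gzmb made up 49.3% to 58.7% of the summed CPM of the 10 genes in the 4 muscle libraries, 19.7% to 24.3% in the 4 Tg spleen libraries, and 9.79% and 14.3% in the WT spleen libraries. Summed over the 10 genes, the level was 2610 and 3345 CPM in Tg muscle, 1882 and 2370 CPM in WT muscle, 875 and 865 CPM in injured Tg spleen, 1277 and 956 CPM in uninjured Tg spleen, and 379.5 and 290.5 CPM in WT spleen. No library of one group overlapped another group in that sum. Without Gzmb and Klrg1, the other 8 genes together gave 400 to 525 CPM in muscle and 176 to 388 CPM in spleen. Most of that sum in muscle was Il12rb1, at 282 to 327 CPM in muscle and 82.4 to 173 CPM in spleen. The difference in this sum therefore does not describe the remaining genes. Per kilobase of exon, Gzmb stood at 694.8 to 1366 CPM in muscle libraries, Klrg1 at 254 to 648 CPM and Il12rb1 at 68.8 to 79.7 CPM, whereas Prf1 lay between 5.87 and 15.4 CPM and Ifng between 2.13 and 6.35 CPM.

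**Figure D1:**
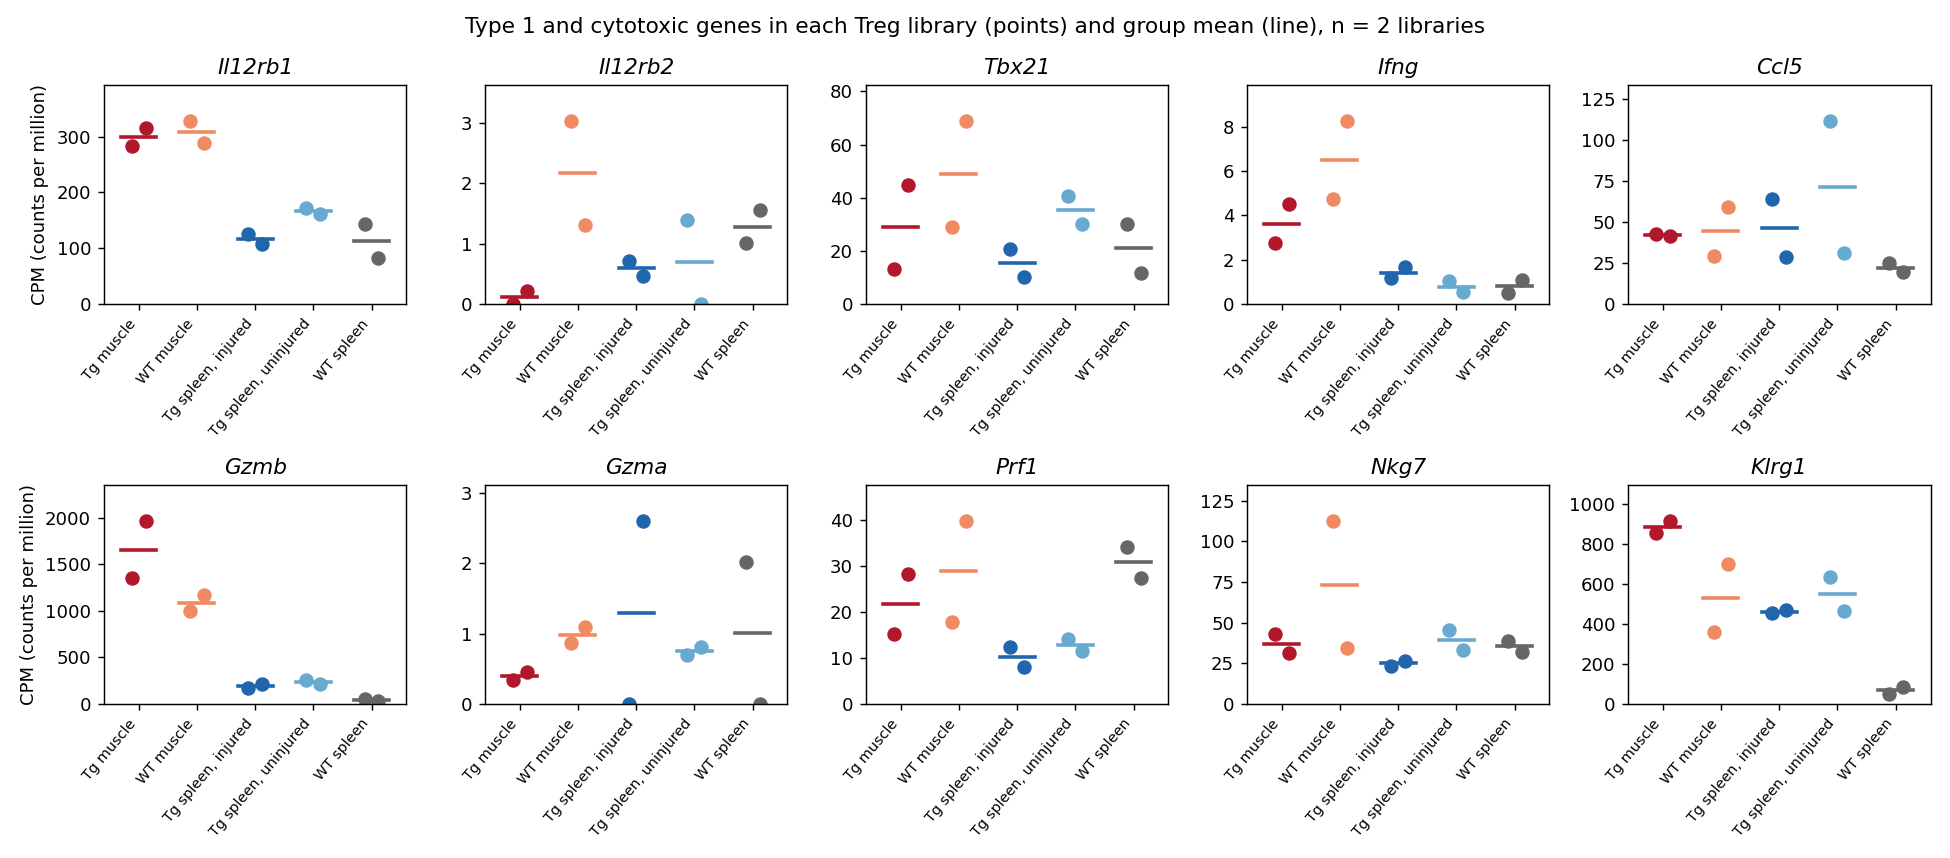
CPM (y axis, linear, from 0, a separate scale for each gene) of the 10 genes in the 5 Treg groups (x axis); each point is a library and each line the mean of 2. Gzmb and Il12rb1 points of both muscle groups lie above all spleen points, and Gzma and Il12rb2 stay at or below 3.03 CPM.

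The first comparison was of muscle with spleen Tregs, made within each genotype. Granzyme B RNA and Il12rb1 RNA were higher in muscle in both genotypes, Klrg1 and Ifng RNA passed the test in WT animals and did not pass in Tg animals, and perforin RNA passed in neither genotype. In Tg mice 2 of the 8 tested genes were called higher at an adjusted p under 0.05 and none lower, where 4.83% of the 13188 genes were called higher, 2.55% lower and 7.38% either way. In WT mice 4 of 8 were called higher and none lower, where 9.38% of all genes were called higher and 6.87% lower. The median log2 fold change over the 8 genes was 1.22 in Tg and 1.58 in WT animals, and over all genes it was -0.04 in each. The genes were chosen with earlier results of these data known. Here and below, a count above the all-gene share is therefore no independent support.

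Il12rb1 (chr8:70808449-70821424, plus strand, mouse build GRCm38) encodes the receptor chain shared by interleukin-12 and interleukin-23. It measured 282 and 316 CPM in Tg muscle Tregs, against 126.5 and 107 CPM in injured Tg spleen Tregs. WT Tregs gave 327 and 289 CPM in muscle and 143 and 82.4 CPM in spleen. All 4 muscle libraries lay above all 6 spleen libraries, the highest of which was uninjured Tg spleen at 173 CPM. On the log2 scale muscle exceeded spleen by 1.56 ± 0.21 (SE) in Tg mice (edgeR, Benjamini-Hochberg adjusted p = 0.000241) and 1.65 ± 0.21 in WT mice (edgeR adjusted p = 9.98e-05).

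Il12rb2, the chain that gives the receptor its interleukin-12 specificity, was near the floor everywhere. It had 0 and 1 counts in Tg muscle, 14 and 12 in WT muscle, 3 and 2 in injured Tg spleen, 4 and 0 in uninjured Tg spleen, and 2 and 7 in WT spleen. Scaled by library total, WT muscle gave 3.03 and 1.32 CPM and overlapped WT spleen at 1.01 and 1.55 CPM. The exons of Il12rb2 overlap those of Serbp1 on the opposite strand. Of the 25-base stretches of Il12rb2, the read length here, 38.6% also occur in Serbp1. The library kit does not mark strand and Serbp1 stood at 161 to 322 CPM, so Il12rb2 counts are uncertain. In a fit with no filter, Tg over WT muscle did not pass (edgeR adjusted p = 0.851). Where both chains had counts, Il12rb1 counts were 53 to 1403 times those of Il12rb2.

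Tbx21, the gene of T-bet, spread widely within groups. It reached 13.1 and 44.6 CPM in Tg muscle and 29.2 and 68.7 CPM in WT muscle. In spleen it reached 20.6 and 10.4 CPM in injured Tg mice, 40.6 and 30.2 CPM in uninjured Tg mice, and 30.2 and 11.8 CPM in WT mice. Muscle and spleen libraries overlapped in both genotypes. The log2 fold change of muscle over spleen was 1.12 ± 0.75 in Tg mice (edgeR adjusted p = 0.468) and 1.50 ± 0.74 in WT mice (edgeR adjusted p = 0.232), and without Tg muscle replicate 2 the Tg value was -0.0481.

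Ifng (chr10:118441046-118445892, plus strand), the defining type 1 cytokine, was rare in every group. It had 8 and 20 counts (2.76 and 4.51 CPM) in Tg muscle, against 5 and 7 counts (1.20 and 1.65 CPM) in injured Tg spleen. In WT mice it had 22 and 75 counts (4.76 and 8.23 CPM) in muscle and 1 and 5 counts (0.503 and 1.11 CPM) in spleen. Every muscle library lay above every spleen library. In WT mice the log2 fold change was 3.05 ± 0.89 (edgeR adjusted p = 0.0305). That call was lost without WT muscle replicate 2 (adjusted p = 0.167), without WT spleen replicate 1 (0.13) or 2 (0.119), and in a fit of the compared groups alone (0.0733). In Tg mice it was 1.54 ± 0.83 (edgeR adjusted p = 0.321). A transcript annotated on the same strand, Gm49751, holds 23.4% of the 25-base stretches of Ifng and is absent from the deposited counts.

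Ccl5, a chemokine that draws T cells and is stored in effector lymphocytes, passed the test in neither genotype. It measured 42.8 and 41.5 CPM in Tg muscle, against 64.2 and 28.8 CPM in injured Tg spleen. Among WT libraries it measured 29.4 and 59.2 CPM in muscle and 25.2 and 19.5 CPM in spleen. The Tg groups overlapped and the WT groups did not. Muscle over spleen, the log2 fold change was 0.05 ± 0.68 in Tg mice (edgeR adjusted p = 0.982), and -0.14 when libraries were scaled by their totals alone, and 1.22 ± 0.71 in WT mice (edgeR adjusted p = 0.314).

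Gzmb (chr14:56258838-56262260, minus strand), the serine protease of killer granules, showed the widest tissue difference of the 8 tested genes. It reached 1353 and 1962 CPM in Tg muscle Tregs, against 172.5 and 210 CPM in injured Tg spleen Tregs. WT Tregs reached 998 and 1168 CPM in muscle and 54.4 and 28.4 CPM in spleen. The ratio of mean CPM was 8.66 in Tg and 26.2 in WT mice, with no overlap in either. The log2 fold change was 3.31 ± 0.30 in Tg mice (edgeR adjusted p = 0.000176) and 4.95 ± 0.33 in WT mice (edgeR adjusted p = 1.92e-05). Gzmb shares 2.27% of its 25-base stretches with its neighbour Gzmc, so the split of reads between them is slightly uncertain.

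Perforin is encoded by Prf1. Its level was 15.2 and 28.4 CPM in Tg muscle, against 12.5 and 8.04 CPM in injured Tg spleen. WT Tregs had 17.9 and 39.8 CPM in muscle and 34.2 and 27.5 CPM in spleen. The WT tissues overlapped and the Tg tissues did not. The log2 fold change was 1.30 ± 0.44 in Tg mice (edgeR adjusted p = 0.0967), a call gained without WT muscle replicate 1 (0.025) or 2 (0.032) and with no filter on low counts (0.0167). In WT mice it was 0.13 ± 0.42 (edgeR adjusted p = 0.877), and the sign turned when libraries were scaled by their totals alone (-0.0814).

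Because Gzmb and Prf1 products act together, their transcripts were also set against each other within each library. Per kilobase of exon, Gzmb was 160 and 124 times Prf1 in Tg muscle, 100.1 and 52.8 times in WT muscle, 24.9 and 47.1 times in injured Tg spleen, 31.9 and 33.9 times in uninjured Tg spleen, and 2.86 and 1.86 times in WT spleen. Libraries of both muscle groups lay above all spleen libraries, and both Tg spleen groups lay above WT spleen. With 2 libraries a group this ratio is a description and was not tested.

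**Figure D2:**
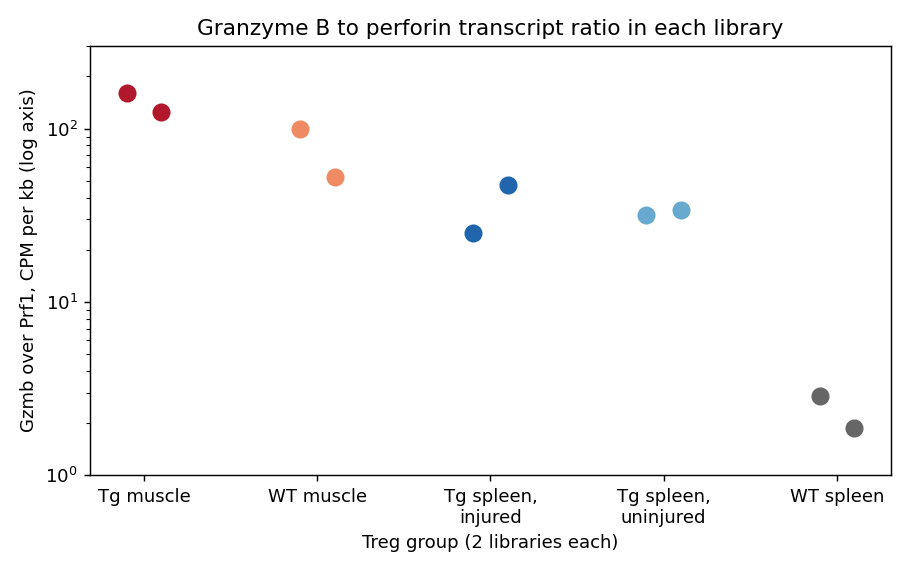
Ratio of Gzmb to Prf1 in CPM per kilobase (y axis, log scale) in each Treg library (points) of the 5 groups (x axis). The muscle points lie between 52.8 and 160, the Tg spleen points between 24.9 and 47.1, and the WT spleen points at 2.86 and 1.86.

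Gzma, the granzyme that killer cells hold beside granzyme B, was close to the floor. It had 1 and 2 counts in Tg muscle, 4 and 10 in WT muscle, 0 and 11 in injured Tg spleen, 2 and 3 in uninjured Tg spleen, and 4 and 0 in WT spleen. No group stood above the others, and a difference was not detectable at this depth. In a fit with no filter, the adjusted p (edgeR) was 0.934 in Tg and 1 in WT mice. Gzmb had 108 to 10651 counts in these 10 libraries, where Gzma had at most 11.

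Nkg7, a granule membrane protein involved in granule release, measured 43.1 and 31.1 CPM in Tg muscle, against 23.5 and 26.5 CPM in injured Tg spleen. WT Tregs had 112 and 34.2 CPM in muscle and 38.8 and 32.0 CPM in spleen. A single library, WT muscle replicate 1, was high. Muscle over spleen, it was on the log2 scale 0.76 ± 0.45 in Tg mice (edgeR adjusted p = 0.396) and 1.21 ± 0.44 in WT mice (edgeR adjusted p = 0.0959). The WT value was 0.21 without WT muscle replicate 1 and 1.82 without replicate 2 (edgeR adjusted p = 0.000215), and it was also called with DESeq2 (0.0282) and with no filter (0.000143).

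Klrg1 (chr6:122270596-122282882, minus strand), an inhibitory receptor that binds cadherins and marks effector T cells and some effector Tregs, measured 858 and 916 CPM in Tg muscle, against 454 and 469 CPM in injured Tg spleen. In WT mice it measured 359 and 701 CPM in muscle and 50.3 and 86.2 CPM in spleen. Neither pair overlapped. In WT mice the log2 fold change was 3.13 ± 0.41 (edgeR adjusted p = 0.00281). In Tg mice it was 1.14 ± 0.37 (edgeR adjusted p = 0.136), and this passed the threshold without WT muscle replicate 1 (0.00785) or 2 (0.00672), with limma-voom (0.0173), without robust dispersion (0.0354) and in a fit of the compared groups alone (3.38e-05).

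**Figure D3:**
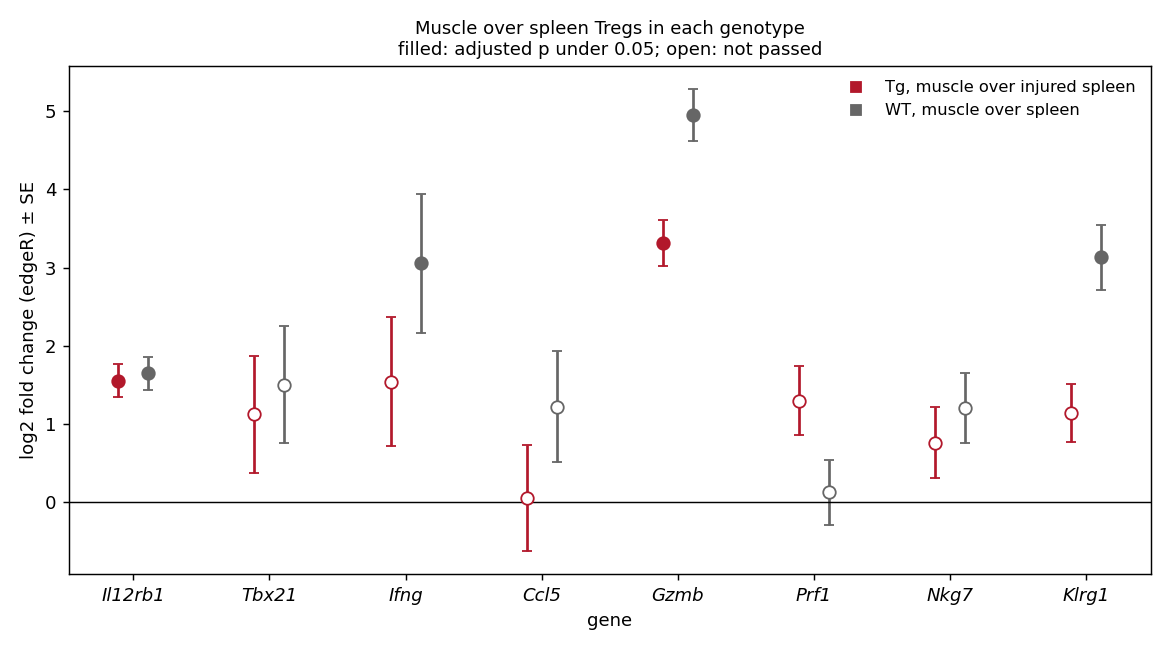
Log2 fold change of muscle over spleen Tregs (y axis, with SE bars) for the 8 tested genes (x axis), in Tg mice (red) and WT mice (grey), each from 2 against 2 libraries. Filled points passed an adjusted p of 0.05: Il12rb1 and Gzmb in both genotypes, Ifng and Klrg1 in WT mice.

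Calls for Gzmb and Il12rb1 in both genotypes and for Klrg1 in WT mice were kept in all 20 alternative settings tried. Scaling by library totals alone moved the median of all genes by -0.20 in the Tg and -0.19 in the WT tissue comparison, and the share of called genes that were higher in muscle was then 38.9% in place of 65.5% in Tg mice and 37.7% in place of 57.7% in WT mice. Those of the 8 genes that were called under that scaling were all higher in muscle, in both genotypes. In sorted bulk RNA, more cells that express a gene and more RNA per cell cannot be told apart.

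Markers of other cells were followed beside these values. The 12 markers of natural killer and CD8 T cells summed to 16.9 to 21.6 CPM in Tg muscle and 25.3 and 25.6 CPM in WT muscle, against 31.0 to 39.5 CPM in injured Tg spleen and 28.4 to 40.3 CPM in WT spleen. Ncr1, which defines natural killer cells, was at 0 in both muscle groups. Cd8a was at 0 in Tg muscle and had 2 and 6 counts in WT muscle. Cd8b1, the other CD8 chain, stood at 11.0 and 10.6 CPM in Tg muscle and 22.7 and 22.6 CPM in WT muscle, against 18.0 and 14.4 CPM in injured Tg spleen and 28.2 and 18.2 CPM in WT spleen. Tyrobp and Fcer1g had counts in every library. Of the 3 among the 12 that were tested, 0 were called in either tissue comparison. Macrophage markers (10 genes) summed to 10.6 to 29.0 CPM in muscle and 64.4 to 170.9 CPM in spleen, and B cell markers (8 genes) to 19.0 to 32.6 CPM in muscle and 47.2 to 111.6 CPM in spleen. Neutrophil markers (8 genes) were low and lay the other way. They summed to 14.0 and 20.3 CPM in Tg muscle and 3.03 and 19.2 CPM in WT muscle, against 2.36 and 4.55 CPM in injured Tg spleen and 0.666 and 1.51 CPM in WT spleen. Most of that sum in muscle was Ltf, the lactoferrin gene, which was called higher in WT muscle (log2 fold change 5.13 ± 1.27, edgeR adjusted p = 0.0169) and not in Tg muscle (2.79 ± 0.92, edgeR adjusted p = 0.0951), while S100a8 was at 0 in both muscle groups. Genes that respond to cell dissociation and heat moved with the tissue. They summed to 9938 to 11727 CPM in muscle and 2989 to 3498 CPM in spleen. In each genotype 15 of 18 were called higher in muscle, where 4.83% of all genes were in Tg and 9.38% in WT mice. The part of these 18 genes in the member values was not tested.

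**Figure D4:**
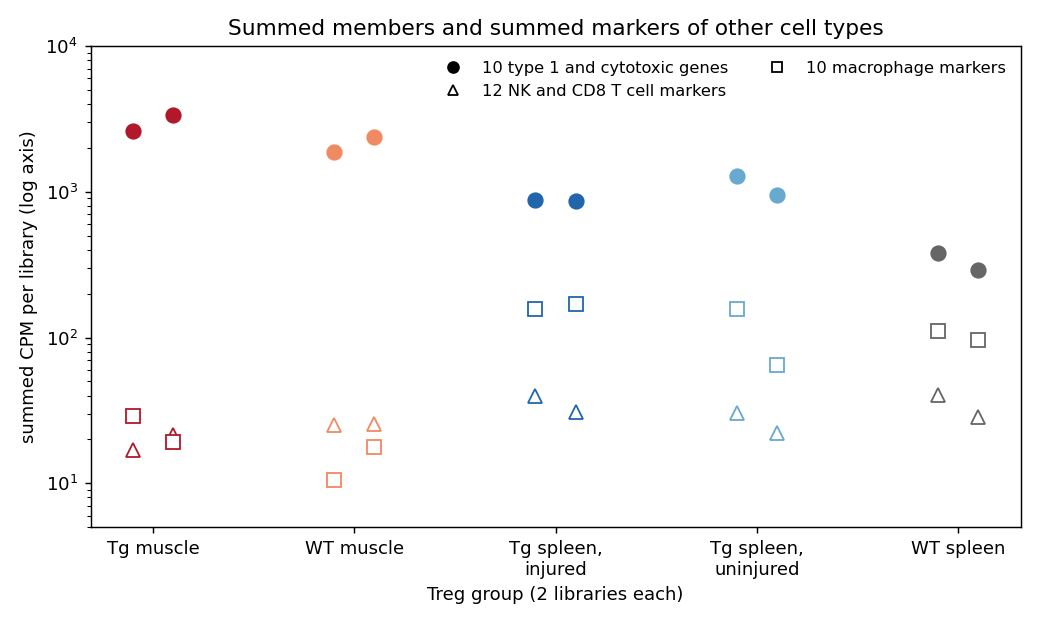
Summed CPM (y axis, log scale) of the 10 genes (filled circles), of 12 natural killer and CD8 T cell markers (triangles) and of 10 macrophage markers (squares) in each Treg library of the 5 groups (x axis). The circles run from 290.5 to 3345 CPM and the triangles from 16.9 to 40.3 CPM.

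The genes around these members in the type 1 pathway were counted from lists. Over all genes in the same tissue comparisons, 4.83% were called higher and 2.55% lower in Tg mice. In WT mice the shares were 9.38% and 6.87%, and the median log2 fold change over all genes was -0.04 in each genotype. The same shares stand beside the granule, cytokine and other effector lists below. Of 17 tested genes of the type 1 programme (receptors, kinases and transcription factors), 6 were higher and 0 lower in Tg muscle than injured Tg spleen, with a median log2 fold change of 0.54, and 10 were higher and 1 lower in WT muscle than spleen, with a median of 0.98. Ifngr1, a chain of the interferon gamma receptor, stood at 1326 to 1384 CPM in Tg muscle and 500.2 to 529 CPM in injured Tg spleen (log2 fold change 1.60 ± 0.14, edgeR adjusted p = 4.03e-06). Ifngr2, the other chain of that receptor, was the 1 gene lower in WT muscle, at 37.2 to 40.0 CPM, against 63.4 to 81.7 CPM in WT spleen (-0.74 ± 0.21, edgeR adjusted p = 0.0248), and was not called in Tg mice (-0.19 ± 0.21, edgeR adjusted p = 0.672). Prdm1, the gene of the repressor Blimp-1, stood at 154 to 176 CPM in Tg muscle and 48.2 to 66.4 CPM in injured Tg spleen (1.72 ± 0.28, edgeR adjusted p = 0.00178). Stat4, which carries the interleukin-12 signal, did not pass in WT mice (0.15 ± 0.22, edgeR adjusted p = 0.712). Id2, a regulator of effector lymphocytes, stood at 183 to 295 CPM in WT muscle and 34.9 to 44.3 CPM in WT spleen (2.81 ± 0.27, edgeR adjusted p = 2.41e-05).

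Of 16 tested genes for granule content, granule release and killing, 4 were higher and 0 lower in Tg muscle, with a median of 0.13, and 5 were higher and 1 lower in WT muscle, with a median of 0.09. Srgn, the proteoglycan that packs granzymes, measured 1168 to 1401 CPM in Tg muscle and 685 to 798 CPM in injured Tg spleen (0.99 ± 0.18, edgeR adjusted p = 0.00254). Stx11, a fusion protein needed for granule release, measured 164.5 to 215 CPM in WT muscle and 35.1 to 68.5 CPM in WT spleen (2.11 ± 0.27, edgeR adjusted p = 0.000204). Cst7, an inhibitor of cysteine cathepsins, was the gene that fell in WT muscle, where it measured 53.4 to 58.2 CPM, against 125 to 141 CPM in WT spleen. The granule granzyme Gzmc rose in both genotypes but shares 3.68% of its stretches with Gzmb. Of 5 tested type 1 cytokine genes, Tnf was higher in Tg muscle (1.11 ± 0.25, edgeR adjusted p = 0.0128) and Lta lower in WT muscle (-1.53 ± 0.33, edgeR adjusted p = 0.00525).

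Programmes that compete with type 1 in helper cells were set beside it. Of 8 tested genes of other effector programmes, 4 were higher and 1 lower in muscle in each genotype. Rora rose in both, by 1.57 ± 0.17 in Tg mice and 2.39 ± 0.18 in WT mice on the log2 scale (edgeR adjusted p = 2.52e-05 and 4.94e-07). Cxcr5, the follicular homing receptor, fell by 3.78 in Tg muscle and by 2.87 in WT muscle (edgeR adjusted p = 1.92e-05 and 2.74e-05).

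The second comparison asked how Tregs with the transgenic receptor differed from WT Tregs in the same tissue. In muscle none of the 8 genes was called, where 0.318% of all genes were (edgeR). At an unadjusted p under 0.05 the count was 1 of 8, against 8.74% of all genes, and DESeq2 and limma-voom also called 0 of them. Tg muscle libraries lay above WT muscle libraries for Gzmb (log2 fold change 0.62 ± 0.27, edgeR adjusted p = 0.572) and for Klrg1 (0.73 ± 0.37, edgeR adjusted p = 0.649), and below them for Ifng (-0.83 ± 0.75, edgeR adjusted p = 0.835). Gzma and Il12rb2, near the floor, also lay below. With 2 libraries a group such separation is a description, and its share over all genes was not counted. Il12rb1 (-0.03 ± 0.20) and Ccl5 (-0.10 ± 0.67) gave the smallest values. Tbx21, Prf1 and Nkg7 gave -0.76 ± 0.70, -0.42 ± 0.42 and -0.95 ± 0.44. Without WT muscle replicate 2, Nkg7 passed as lower in Tg muscle (-1.56, edgeR adjusted p = 0.00823), and without replicate 1 its value was 0.0561. With no filter on low counts, Gzmb passed as higher in Tg muscle (edgeR adjusted p = 0.0112) and Nkg7 as lower (edgeR adjusted p = 0.0418).

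In the spleen after injury, Gzmb and Klrg1 RNA stood higher in Tg Tregs. They were 2 of the 8 tested genes called higher, with none called lower, where 0.887% of all genes were called higher. Gzmb measured 172.5 and 210 CPM in injured Tg spleen, against 54.4 and 28.4 CPM in WT spleen, a log2 fold change of 2.26 ± 0.31 (edgeR adjusted p = 0.00935). Klrg1 measured 454 and 469 CPM in injured Tg spleen, against 50.3 and 86.2 CPM in WT spleen, a log2 fold change of 2.72 ± 0.41 (edgeR adjusted p = 0.0301). No library of either gene overlapped between the genotypes. Neither call held when injured Tg spleen replicate 1 was left out (adjusted p 0.0565 for Gzmb and 0.195 for Klrg1) or replicate 2 (0.104 and 0.208). The Klrg1 call was also lost without WT spleen replicate 1 (0.12) or 2 (0.105), without Tg muscle replicate 1 (0.0704) or 2 (0.0713), and with no filter (0.0989).

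Perforin lay the other way in the spleen. Prf1 measured 12.5 and 8.04 CPM in injured Tg spleen, against 34.2 and 27.5 CPM in WT spleen, with no overlap. The log2 fold change was -1.59 ± 0.45 and did not pass (edgeR adjusted p = 0.117). It passed with DESeq2 (0.0489), with no filter (0.00392), in a fit of the compared groups alone (0.0223), and without WT muscle replicate 1 (0.0215) or 2 (0.028). The other 5 tested genes had adjusted p-values (edgeR) between 0.713 for Ccl5 and 0.969 for Il12rb1.

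Around them, 4 of 17 type 1 programme genes were higher in injured Tg spleen than WT spleen and 0 lower. They were Il18rap and Il18r1, the chains of the interleukin-18 receptor, with Id2 and Runx3. Of all genes, 0.887% were called higher in that comparison. Il18rap measured 84.3 to 95.7 CPM in injured Tg spleen and 8.44 to 24.7 CPM in WT spleen (log2 fold change 2.57 ± 0.34, edgeR adjusted p = 0.0024). Of 16 granule and killing genes, 1 fell and 0 rose, where 0.417% of all genes were called lower: Ctsw, a cathepsin of killer cells, measured 16.3 to 30.7 CPM in injured Tg spleen and 59.9 to 68.2 CPM in WT spleen (-1.46 ± 0.29, edgeR adjusted p = 0.0206). In muscle, 0 of 17 and 0 of 16 genes of these lists were called between genotypes. The natural killer and CD8 markers overlapped between the 2 spleen groups in their sum. Of the 3 tested, 2 had a positive log2 fold change and 0 were called. Among them, Fcer1g stood at 9.58 and 8.04 CPM in injured Tg spleen, against 0.503 and 1.33 CPM in WT spleen. Its log2 fold change was 3.08 ± 0.87 (edgeR adjusted p = 0.122). Macrophage markers summed to 156.7 and 170.9 CPM in injured Tg spleen, against 95.9 and 112 CPM in WT spleen. Muscle fibre markers (8 genes) summed to 208.7 and 259.2 CPM in injured Tg spleen, against 84.6 and 91.7 CPM in WT spleen, and to 127.5 and 163.1 CPM in Tg muscle, against 36.4 and 45.0 CPM in WT muscle. Most of that sum was Ttn, the titin gene, which was called higher in Tg than WT Tregs in spleen (log2 fold change 1.64 ± 0.20, edgeR adjusted p = 0.000816) and in muscle (2.28 ± 0.20, edgeR adjusted p = 3.68e-05), while Tnnc2 was at 0 in all 10 libraries. In uninjured Tg spleen the fibre markers summed to 224.0 and 281.2 CPM. Ttn gave 206.0 and 266.3 CPM of that, and Acta1 and Myh4 were at 0. Whether other cells had a part in the Gzmb and Klrg1 values was not tested.

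**Figure D5:**
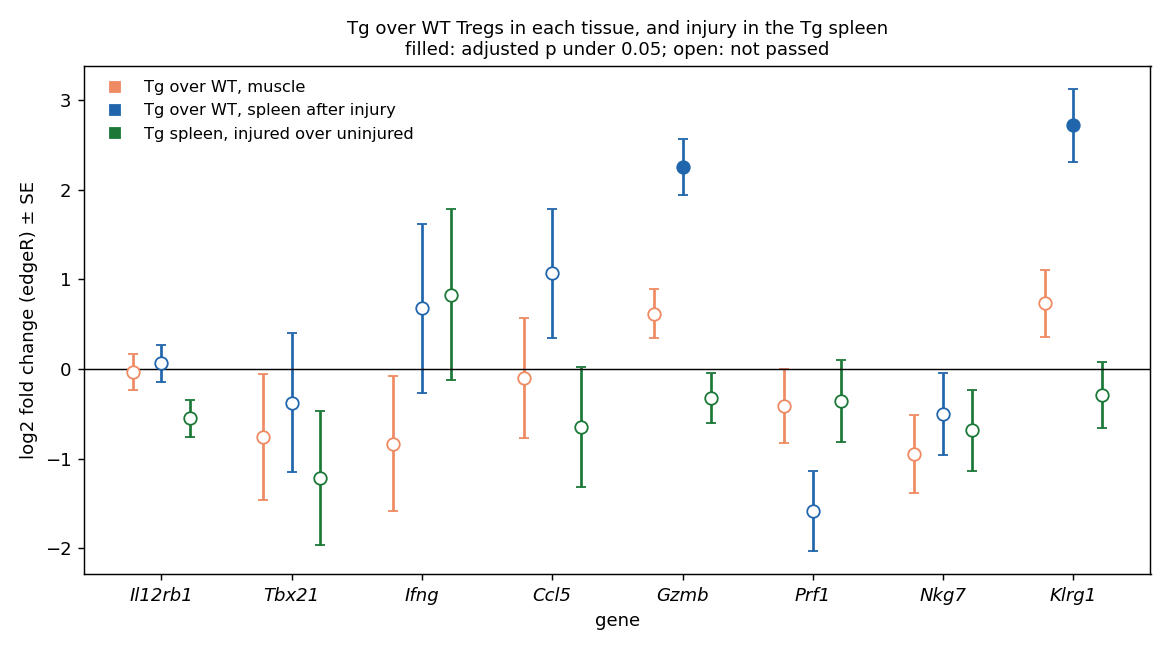
Log2 fold change (y axis, with SE bars) of the 8 tested genes (x axis) for Tg over WT in muscle (orange), Tg over WT in spleen after injury (blue) and injured over uninjured Tg spleen (green), each from 2 against 2 libraries. Filled points, Gzmb at 2.26 and Klrg1 at 2.72 in the spleen, passed an adjusted p of 0.05.

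Whether the tissue difference itself depended on genotype was tested as an interaction. None of the 8 genes passed (edgeR), where 0.136% of all genes did (0.0531% higher and 0.0834% lower), and 2 of 8 had an unadjusted p under 0.05, against 7.93% of all genes. Gzmb differed by -1.64 ± 0.41 on the log2 scale (Tg tissue effect minus WT tissue effect, edgeR adjusted p = 0.291) and Klrg1 by -1.99 ± 0.54 (edgeR adjusted p = 0.371). The Gzmb difference passed with DESeq2 (0.000894), with no filter (3.87e-10) and without WT spleen replicate 1 (0.0145), and the Klrg1 difference without WT muscle replicate 1 (0.00585). Il12rb1 differed by -0.09 ± 0.29. Of 17 tested type 1 programme genes, 1 was called lower, Cxcr3 (-1.64 ± 0.29, edgeR adjusted p = 0.0468). Cxcr3 measured 198 and 205 CPM in Tg muscle, against 180 and 164 CPM in injured Tg spleen. WT Tregs had 400.8 and 401.5 CPM in muscle and 142 and 78.6 CPM in spleen. Both tissue effects share the libraries of the genotype comparisons above, so these values are not separate evidence.

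The last comparison set injured against uninjured Tg spleen, 3 days after the muscle injury. None of the 8 genes was called, and neither was any of the 13188 genes (edgeR, 0%). DESeq2 and limma-voom also called 0 genes, and 236 genes (1.79%) had an unadjusted p under 0.05. The lowest unadjusted p among the 8, and the only one under 0.05, was that of Il12rb1 at 0.0178 (edgeR adjusted p = 1), at 126.5 and 107 CPM in injured and 173 and 162 CPM in uninjured spleens, a log2 fold change of -0.55 ± 0.21. Tbx21 gave the log2 fold change farthest from 0, -1.22 ± 0.75 (edgeR adjusted p = 1), at 20.6 and 10.4 CPM in injured spleens, against 40.6 and 30.2 CPM in uninjured spleens. Its groups did not overlap, and its value ran from -1.79 to -0.81 over the 20 alternatives. Klrg1 measured 454 and 469 CPM in injured spleens, against 637 and 468 CPM in uninjured spleens, and the groups overlapped. Gzmb measured 172.5 and 210 CPM in injured spleens, against 252 and 218 CPM in uninjured spleens (-0.33 ± 0.28, edgeR adjusted p = 1). Ccl5 measured 64.2 and 28.8 CPM in injured and 111 and 31.3 CPM in uninjured spleens, and its log2 fold change of -0.65 turned to 0.56 without uninjured Tg spleen replicate 1.

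Genes with the most similar pattern to each member over the 10 Treg libraries were found among 8816 genes that averaged 10 CPM or more. Likeness was the root mean square (RMS) difference of log2(CPM + 1) after each gene was centred on its own mean, and 0 is an identical pattern. Gzmb lay closest to Lmna (0.379) and Havcr2 (0.576), the genes of lamin A and of the checkpoint receptor TIM-3. Lmna stood at 602 to 880 CPM in Tg muscle, 517 to 686 CPM in WT muscle, 87.2 to 92.2 CPM in injured Tg spleen, 73.5 to 111 CPM in uninjured Tg spleen and 11.8 to 28.2 CPM in WT spleen. Klrg1 lay closest to Rhoc (0.401) and Fut7 (0.493). Of the 8 tested members, Il12rb1 had the closest neighbours, Capg (0.187) and Tpi1 (0.196). Prf1 lay closest to the interferon-inducible GTPase genes Gm12250 (0.347) and Gbp2 (0.359). Among the members themselves, the most distant pair was Gzmb and Prf1 (2.02). Gzmb also lay far from Nkg7 (1.83), Ccl5 (1.78) and Tbx21 (1.74). Patterns were not scaled for spread, so a gene with wide changes lies far from flat ones.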

How the data were processed

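RNA of 16 libraries had been primed with oligo(dT), amplified by PCR and fragmented with a transposase, per the labels' protocols, which gives no strand. Per the submitters' processing notes, the authors used STAR 2.5.4, featureCounts and build mm10. No annotation, strand setting or featureCounts version was stated. The deposited table holds raw counts. Cell numbers per library differ between the labels and the design text and are not used.

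The 10 Treg libraries were fitted together with edgeR 4.0.16 in R 4.3.3 (filterByExpr, TMM scaling, glmQLFit with robust dispersion, glmQLFTest, 5 residual degrees of freedom), with Benjamini-Hochberg adjustment over 13188 genes and a threshold of 0.05, after a test on simulated data. Displayed CPM use library totals. Levels per kilobase use exons of GENCODE M21. DESeq2 1.42.0, limma-voom (limma 3.58.1), other scalings and filters, and single libraries left out were alternatives. The members and lists were chosen with earlier results of these data known. Genes outside the members are named by a rule of up to 4 called and 2 uncalled genes a list and comparison.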

Additional observations from a re-analysis of the deposited data

Results flagged for a closer look

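Ifng lay lower in every Tg than in every WT muscle library (log2 fold change -0.83) and higher in every injured Tg spleen than in every WT spleen library (0.68). Neither value was called (edgeR adjusted p = 0.835 and 0.903). The spleen counts were 5 and 7 in injured Tg and 1 and 5 in WT libraries. The nearest libraries had 5 counts each and were separated only by library total (1.20 and 1.11 CPM). With 2 libraries a group such separation is a description, and its share over all genes was not counted. The difference between the tissues was tested as an interaction and did not pass (-1.51 ± 1.21, edgeR adjusted p = 0.83).

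In whole muscle taken 8 days after injury, which no comparison above used, Gzma had 6, 9 and 5 counts in Tg and 3, 3 and 1 counts in WT libraries. The means were 1.03 ± 0.34 and 0.358 ± 0.14 CPM (SD, n = 3 each). Ifng had 0 counts in all 6 whole muscle libraries, and Gzmb at most 3.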

How the results depend on the processing

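The tissue calls of Gzmb and Il12rb1 in both genotypes and of Klrg1 in WT mice held under all 20 alternatives. Gzmb in Tg over WT spleen was called in 18 of 20, Klrg1 there in 13 of 20, and Ifng in the WT tissue comparison in 15 of the 19 that gave a value. Over all members and comparisons, 892 alternative values kept direction and side of the threshold, 13 were weaker, 23 passed the threshold newly and 24 reversed.

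Counts of called genes moved by over 1.5 times as follows, with the cause not tested. With no filter on low counts, 195 genes and 2 members were called in Tg over WT muscle, 372 genes in Tg over WT spleen, 5 in injured over uninjured spleen, and 140 genes and 1 member in the interaction. DESeq2 called 101, 289 and 55 genes in the muscle, spleen and interaction tests, with 1 member, Gzmb, in the interaction. Without robust dispersion the interaction had 4 genes, and with receptor segments removed the muscle genotype test had 16. Fits of the compared groups alone called 1046 genes in the WT tissue comparison, 10 between genotypes in muscle, 338 in spleen and 4 in the interaction.

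Leaving out 1 library at a time, the Tg tissue comparison called 452 to 1466 genes and 2 to 4 members, the WT one 887 to 2768 genes and 3 to 4 members, Tg over WT muscle 25 to 361 genes and 0 to 1 members, Tg over WT spleen 57 to 331 genes and 0 to 3 members, and the interaction 3 to 241 genes and 0 to 1 members. Where a group kept 1 library, it was assumed to vary like the others. Directions reversed for uncalled values. In the Tg tissue comparison Tbx21 ran from -0.0481 to 1.73 and Ccl5 from -0.41 to 0.74, and in the WT one Prf1 ran from -0.63 to 0.62. Between genotypes in muscle, Tbx21 ran from -1.94 to 0.0659, Prf1 from -0.97 to 0.35, Il12rb1 from -0.13 to 0.0451, Nkg7 from -1.56 to 0.0561 and Ccl5 from -0.54 to 0.57. In spleen Tbx21 ran from -0.97 to 0.39 and Il12rb1 from -0.30 to 0.50. Ccl5 ran from -1.34 to 0.56 with injury. In the interaction Tbx21 ran from -1.56 to 0.43, Il12rb1 from -0.54 to 0.26 and Nkg7 from -1.07 to 0.55. Scaling by library totals alone gave Ccl5 -0.14 in the Tg and Prf1 -0.0814 in the WT tissue comparison.

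Same-numbered libraries did not deviate together (correlations of -0.04 to 0.09), and the main fit used no pairing. With 2 libraries a group, these values cannot show whether equal numbers share animals. With a replicate block the fit called 1009 genes in the Tg and 2081 in the WT tissue comparison, 40 between genotypes in muscle, 177 in spleen, 0 with injury and 14 in the interaction, and 2, 4, 0, 2, 0 and 0 members. Depth limits Gzma, Il12rb2 and Ifng, which had at most 75 counts in any library.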
